A study of Mus musculus with 24 samples.

Results

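Gm15446, Zfp932, Zfp951, Gm16867, Lrmda and Wdfy1 were the 6 genes examined, out of 55487 in the count table and 14099 with enough counts to be tested. They were chosen by their counts in these same libraries, because they differed strongly between co-cultures made with WT macrophages and co-cultures made with Tmem175-/- macrophages, and the rows were found by Ensembl identifier. The differences between genotypes below therefore describe the choice and carry no test. The name "near on-off" fitted only 2 of the 6: Gm15446 had 14 counts in all 12 WT libraries together and Gm16867 had 0. Lrmda was present in every WT library and differed by 7.92-fold to 10.4-fold, Zfp932 and Zfp951 differed by 1.35-fold to 2.19-fold, and Wdfy1 was lower, not higher, in the knockout cultures.

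Spleen lymphocytes of mice with tumours of B16-F10-OVA, ovalbumin-expressing mouse melanoma cells, were cultured with macrophages grown from bone marrow (BMDMs) that were either WT or Tmem175-/-. Tmem175 encodes an ion channel of the lysosome membrane. Each genotype was kept without antigen, with antigen from B16-F10-OVA tumour cells, with that antigen and IL-1beta, or with that antigen and IL-18, each cytokine at 500 pg/ml, which gives 8 groups of 3 libraries of poly(A) RNA from the mixed culture. All groups share lymphocytes from tumour-bearing mice. The labels put Tmem175-/- on the macrophages, and the genotype of the lymphocytes, the strain, age and sex of the mice, and whether replicates were separate animals or cultures are not stated, so p-values measure the spread between these libraries, which may be technical. Any inherited difference between the animals that gave WT and Tmem175-/- marrow goes with the genotype in every library, so the deletion and such a difference cannot be told apart.

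Zfp932 and Zfp951 belong to the C2H2 zinc finger genes, a very large mouse family whose proteins bind DNA through repeated fingers joined by a short linker; many also carry a KRAB domain, which recruits the corepressor Trim28 and the methyltransferase Setdb1 to silence transposable elements. The family lies in clusters of young, closely related copies that vary between mouse strains. Lrmda is a leucine-rich repeat gene of melanocyte differentiation, mutated in a human oculocutaneous albinism. Wdfy1 encodes an endosomal protein with a FYVE domain, which binds phosphatidylinositol 3-phosphate, and WD repeats, and it has been described as an adaptor between Toll-like receptors and TRIF.

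Gm15446 and Zfp932 are neighbours on chromosome 5 and near copies of each other, which bears on how their reads can be told apart. In GENCODE vM21 the Gm15446 model holds 1659 coding nucleotides with 16 C2H2 finger motifs and the Zfp932 model 1479 with 15; RefSeq lists Gm15446 as a long noncoding RNA. Zfp951, on the same chromosome but on the other side of Tmem175, has 1353 coding nucleotides with 10 finger motifs. The longest coding stretch that Gm15446 and Zfp932 share without a mismatch is 195 nucleotides, at positions 1193 to 1387 of the Gm15446 transcript and 1290 to 1484 of the Zfp932 transcript. It is shown because a read inside it fits both genes equally well, with capitals marking a linker between 2 fingers.
Shared coding stretch: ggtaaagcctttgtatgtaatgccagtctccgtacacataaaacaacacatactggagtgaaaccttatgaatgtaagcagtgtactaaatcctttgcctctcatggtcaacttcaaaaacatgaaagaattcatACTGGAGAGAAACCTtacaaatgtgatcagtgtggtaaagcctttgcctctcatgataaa
Of the 75-nucleotide windows of the Gm15446 transcript 32.8% occur in Zfp932, and 30.8% of the Zfp932 windows occur in Gm15446, whereas no window of Zfp951, Lrmda or Wdfy1 occurs in another gene. Counts of Gm15446 and Zfp932 are uncertain to that extent, because how the counting treated reads that fit both genes is not given in the sources used here.

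The promoters of the 3 zinc finger genes are printed because Zfp932 and Zfp951 share a stretch that was not found in the Gm15446 window. Each runs from 250 bases before to 50 after the first annotated start in RefSeq on GRCm38.p6; the deposited counts were made on GRCm39, so these positions belong to the reference and not to the count table. Capitals mark CCAAT and, in Zfp932 and Zfp951, the 13-base run CCTGCCAGTCAGA.
Gm15446, chr5:109933313-109933612, plus strand: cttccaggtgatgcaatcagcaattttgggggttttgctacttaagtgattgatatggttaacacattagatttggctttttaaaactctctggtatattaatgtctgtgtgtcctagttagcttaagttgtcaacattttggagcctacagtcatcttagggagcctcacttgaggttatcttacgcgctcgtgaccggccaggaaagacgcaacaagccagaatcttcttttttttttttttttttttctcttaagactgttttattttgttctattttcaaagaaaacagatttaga
Zfp932, chr5:109996260-109996559, plus strand: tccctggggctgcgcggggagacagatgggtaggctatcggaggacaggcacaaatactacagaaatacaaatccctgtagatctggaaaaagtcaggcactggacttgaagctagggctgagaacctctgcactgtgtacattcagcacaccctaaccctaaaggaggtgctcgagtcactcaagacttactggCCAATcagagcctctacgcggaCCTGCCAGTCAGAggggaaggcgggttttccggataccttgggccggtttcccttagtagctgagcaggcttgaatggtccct
Zfp951, chr5:104859978-104860277, minus strand: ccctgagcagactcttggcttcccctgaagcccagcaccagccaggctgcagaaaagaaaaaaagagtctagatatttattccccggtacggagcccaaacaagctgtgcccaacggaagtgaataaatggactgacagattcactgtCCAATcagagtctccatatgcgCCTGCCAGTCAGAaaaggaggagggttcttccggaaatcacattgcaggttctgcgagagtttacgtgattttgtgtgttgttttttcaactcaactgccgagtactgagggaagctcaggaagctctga
The CCAAT box, searched as CCAAT on both strands, occurs in 37.4% of 32851 RefSeq promoters; it was found once each in Zfp932, Zfp951 and Lrmda and in the first of the Gm16867 promoters, and not in this window of Gm15446. The 13-base run was in 56 of the 32851 promoters (0.17%), from 49 genes, of which 16 (32.7%) have names beginning with Zfp, against 1.24% of all 27025 genes with a promoter. The 16 include Zfp932 and Zfp951, from which the run was taken, so these are there by definition. Of the 49 genes 17 others were tested: 1, Klf9, was higher in knockout cultures without antigen, and 0 were called with antigen, against 16.9% and 15.3% of all tested genes called (edgeR quasi-likelihood test, adjusted p under 0.05). The median log2 fold change of the 17 was 0.114 without antigen and 0.0107 with it, beside 0.0062 and 0.00415 over all tested genes. The other searched motifs were the TATA box TATAAA (13.6% of promoters), the GC box GGGCGG (35.7%) and the E box CACGTG (7.15%); among the promoters matched for 5 of the 6 genes the only match was 1 E box in Lrmda.

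The 24 libraries held 17744540 to 24898552 counts each. Levels are given as CPM, counts scaled to library size with TMM factors, as mean ± SD with n = 3. Tmem175 itself, the label check, stood at 25.3 ± 0.871 CPM in WT and 14.6 ± 0.463 in Tmem175-/- cultures without antigen and at 15.2 ± 1.33 and 8.16 ± 0.57 with antigen, and was lower in all 4 conditions (log2 fold change -0.79 to -0.91, adjusted p 3.17e-09 to 2.46e-08, edgeR quasi-likelihood test). Its RNA remained, the part of the gene deleted is not given, lymphocytes are in the culture, and 51.9% of the windows of its transcript lie in the overlapping gene Dgkq on the opposite strand. In 11 of 12 knockout samples the label for genotype names another gene of consecutive number, while every title names Tmem175. Macrophage markers were detected throughout, with the 9 summed at 17400 to 17800 CPM in WT and 12100 to 12500 in knockout cultures without antigen. T cell markers summed there to 139 to 160 and 109 to 120. Of the 8 melanoma markers only Slc45a2 and Gpr143 were at 0 in all 8 groups. The others were detected in 1 or more groups, and the 8 summed to 1.57 to 5.21 CPM over the 24 libraries.

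Between genotypes the 3 libraries of each group did not overlap for any of the 6 genes in any of the 4 conditions. Among all tested genes 30.9% did not overlap without antigen, 31% with antigen, 31.6% with antigen and IL-1beta and 35% with antigen and IL-18, and 5.64% did so in the same direction in all 4. In a mixed culture, fewer cells of a type and less RNA per cell cannot be told apart.

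**Figure D1:**
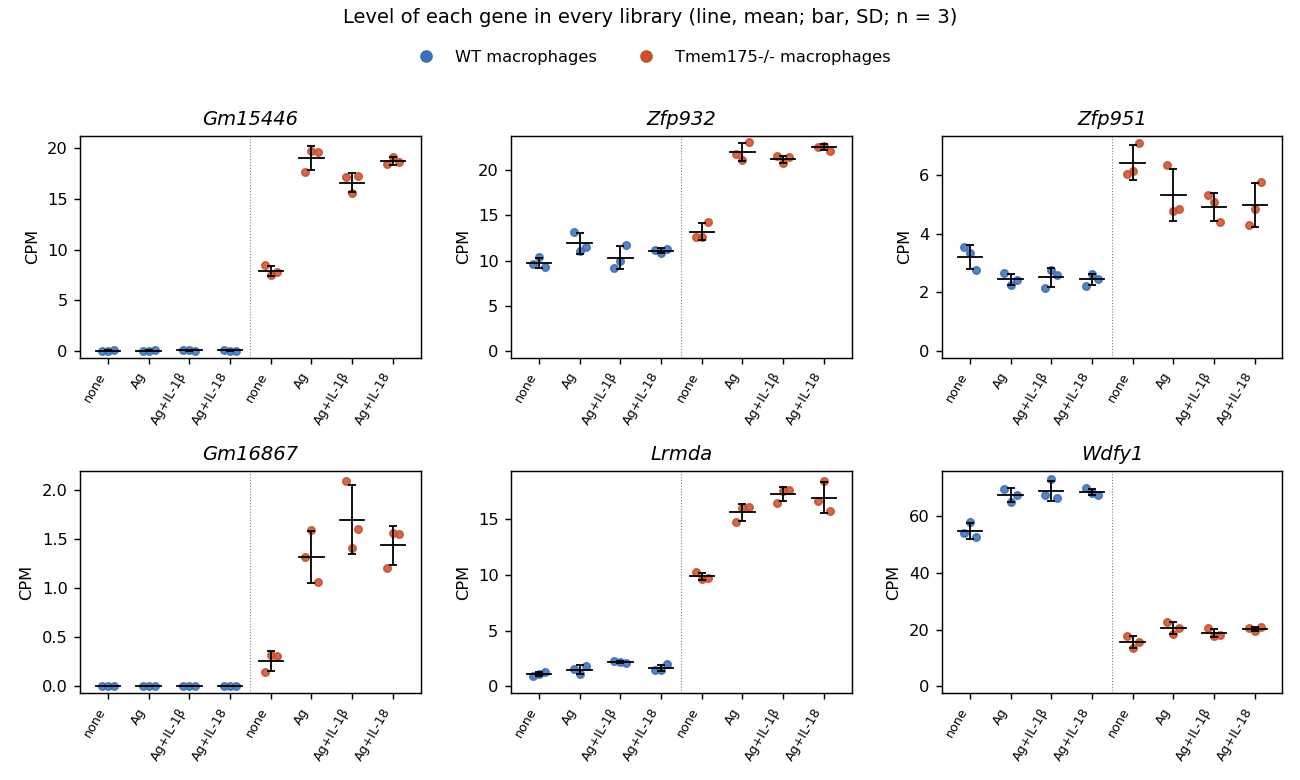
Level of each gene in CPM (vertical axis, linear, its own scale per panel) in each of the 24 libraries, by group along the horizontal axis; points are libraries, black lines the mean and bars the SD (n = 3). Gm15446 and Gm16867 lie at or near 0 in all WT groups, Zfp932, Zfp951 and Lrmda are lower but present in WT, and Wdfy1 is higher in WT.

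Gm15446 was almost confined to the knockout cultures. Without antigen the 3 WT libraries had 1, 0 and 2 counts and the 3 knockout libraries 172, 141 and 173. With antigen the WT libraries had 0, 1 and 2 counts and the knockout libraries 413, 396 and 445. No WT library in any condition passed 2 counts, and the lowest knockout library had 141. As levels, the knockout means were 7.91 ± 0.487 CPM without antigen, 19 ± 1.21 with antigen, 16.6 ± 0.894 with antigen and IL-1beta and 18.7 ± 0.381 with antigen and IL-18, against 0.0468 to 0.0638 CPM in the WT groups. Over all conditions the ratio of knockout to WT was 282, with a 95% interval of 168 to 517 from counting error alone, and by condition it was 162 (55 to 787), 390 (133 to 1890), 272 (106 to 1000) and 300 (117 to 1100). The gene passed the filter on low counts only through its knockout libraries.

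Zfp932, the next tested gene after Gm15446, was expressed in both genotypes. Without antigen the WT libraries stood at 9.57, 10.4 and 9.3 CPM and the knockout libraries at 12.6, 12.6 and 14.3. With antigen they stood at 13.2, 11.1 and 11.5 against 21.8, 21.1 and 23.1 CPM. The gap was narrow without antigen, where the highest WT library was 10.4 and the lowest knockout library 12.6, and wide with antigen. The log2 fold change was 0.44 without antigen, 0.89 with antigen, 1.04 with antigen and IL-1beta and 1.02 with antigen and IL-18 (SE 0.0742 to 0.082). The first of these placed Zfp932 at rank 2124 of 14099 by size. Beside these values, Gm15446, with which it shares sequence, contributed 1254 counts to the knockout libraries with antigen, where Zfp932 had 1459 against 732 in WT; the part of shared reads in the Zfp932 difference was not tested. The other genes that share windows with Zfp932 are Gm17655 (2.05% of windows) and 4930522L14Rik (1.85%), which had 1274 and 1243 counts in the knockout and 1250 and 1261 in the WT libraries.

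Zfp951 shares no window with another gene and was higher in knockout cultures by a factor near 2 in every condition. Without antigen its WT libraries stood at 3.55, 3.33 and 2.76 CPM and its knockout libraries at 6.04, 6.12 and 7.09. With antigen they stood at 2.65, 2.26 and 2.42 against 6.33, 4.77 and 4.85 CPM. No WT library in any condition exceeded 3.55 CPM and no knockout library fell below 4.3. The log2 fold change was 1.00, 1.13, 0.96 and 1.03 in the order of conditions above (SE 0.141 to 0.151).

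Gm16867, a predicted gene on chromosome 14, had 0 counts in all 12 WT libraries, which allows a level of up to 0.0119 CPM over the 12 (3 counts, counting error only). The knockout libraries had 3, 6 and 7 counts without antigen, 31, 32 and 24 with antigen, 45, 29 and 31 with antigen and IL-1beta, and 25, 29 and 38 with antigen and IL-18. It was thus detected in 12 of 12 knockout libraries, at 0.26 ± 0.0979 CPM without antigen and 1.32 ± 0.266 with antigen. Against a floor of 3 counts over the WT group it was at least 5.32-fold higher without antigen, at least 27-fold with antigen, at least 37.3-fold with IL-1beta added and at least 30.8-fold with IL-18 added. This gene too passed the filter only through knockout libraries. Almost all of its transcript, 98% of the windows, occurs in 1 or more of 8 other genes, so which copy gave the reads is uncertain. Entpd4 and Entpd4b, which encode nucleoside diphosphatases of internal membranes and each hold 55.9% of the windows, had 0 counts in all 24 libraries, and Gm27177, which holds 78.8%, had 2. The neighbouring iron transporter gene Slc25a37, with 7.53% of the windows, had 30031 counts in the knockout and 38510 in the WT libraries.

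Lrmda was the most different of the genes that both genotypes expressed clearly. Without antigen the WT libraries stood at 0.938, 1.16 and 1.33 CPM and the knockout libraries at 10.2, 9.64 and 9.74. With antigen they stood at 1.58, 1.09 and 1.87 against 14.7, 16 and 16.1 CPM. The highest WT library of any condition had 2.26 CPM, below the lowest knockout library at 9.64. The fold was 8.59 without antigen, 10.4 with antigen, 7.92 with antigen and IL-1beta and 10.2 with antigen and IL-18. The genes overlapping Lrmda had 16 counts or fewer each over the 24 libraries.

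Wdfy1 went the other way. Without antigen the WT libraries stood at 53.9, 58 and 52.6 CPM and the knockout libraries at 17.7, 13.6 and 15.6. With antigen they stood at 69.6, 64.8 and 67.4 against 22.7, 18.6 and 20.7 CPM. Over all conditions the lowest WT library had 52.6 CPM and the highest knockout library 22.7. It was 3.49-fold lower in knockout cultures without antigen, and 3.24-fold, 3.65-fold and 3.36-fold lower in the other conditions. Mrpl44, a mitochondrial ribosome gene that overlaps Wdfy1 on the opposite strand, had 5565 counts in the knockout and 5309 in the WT libraries, and was not called without antigen (log2 fold change 0.15, adjusted p 0.154, edgeR quasi-likelihood test).

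Per kilobase of the longest transcript, the order of the 6 genes differed between the genotypes. In WT cultures without antigen Wdfy1 led at 12 CPM per kb, followed by Zfp932 at 3.89, Zfp951 at 1.11, Lrmda at 0.696, Gm15446 at 0.0204 and Gm16867 at 0. In knockout cultures without antigen Lrmda led at 6, followed by Zfp932 at 5.25, Wdfy1 at 3.44, Gm15446 at 3.27, Zfp951 at 2.21 and Gm16867 at 0.0725 CPM per kb. Neighbouring ranks such as Wdfy1 and Gm15446 in the knockout cultures are close, and the sequence shared between genes adds to their uncertainty.

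The next question was whether the genes around Tmem175 differed between genotypes as the zinc finger genes did. In RefSeq order, Gm15446 is the eighth and Zfp932 the ninth tested gene on one side of Tmem175, and Zfp951 is 36 tested genes away on the other side. Of the 38 other genes among the 20 tested genes on each side, 0 were called at 2-fold or more in any of the 4 conditions (edgeR quasi-likelihood test, adjusted p under 0.05; 0 also by DESeq2), against 4.11%, 3.99%, 3.76% and 4.03% of all tested genes. With no minimum fold 1 of the 38 (2.63%) was called in each condition, against 16.9%, 15.3%, 13.8% and 20.2% of all tested genes. These were Crlf2, a cytokine receptor subunit, without antigen (log2 fold change 0.25), Pole, the catalytic subunit of a DNA polymerase, with antigen (0.54) and with IL-1beta added (0.38), and Atp5k, a subunit of ATP synthase, with IL-18 added (0.16), named here after their values were seen.

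Of the genes directly beside Tmem175 and the zinc finger genes, those beside Tmem175 and beside the Gm15446 and Zfp932 pair were not called, and those beside Zfp951 were called in some conditions. Gak, a clathrin-uncoating kinase, and Dgkq, a diacylglycerol kinase, flank Tmem175 and had log2 fold changes of 0 and -0.02 without antigen and 0.03 and 0.04 with it, none called. Gm10416 and Gm17655, which flank the Gm15446 and Zfp932 pair, had -0.30 and 0.19 without antigen and -0.42 and -0.02 with it, none called. Pkd2, a polycystin channel gene, and Abcg3, an ABC transporter gene, flank Zfp951 and had -0.06 and -0.23 without antigen, not called; with antigen Pkd2 had -0.08, not called, and Abcg3 0.49 (adjusted p 0.0361), and with IL-18 added they had -0.27 and 0.72 (adjusted p 0.00039 and 0.00211, edgeR). Over the whole of chromosome 5, 9 of 815 tested genes (1.1%) were called at 2-fold or more in all 4 conditions, Gm15446 among them. Of all tested genes 2.35% were. That share was raised by chromosomes 12 (92 of 527, 17.5%) and 6 (91 of 746, 12.2%). The other chromosomes with more than 2 tested genes ran from 0.431% to 2.25%.

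**Figure D2:**
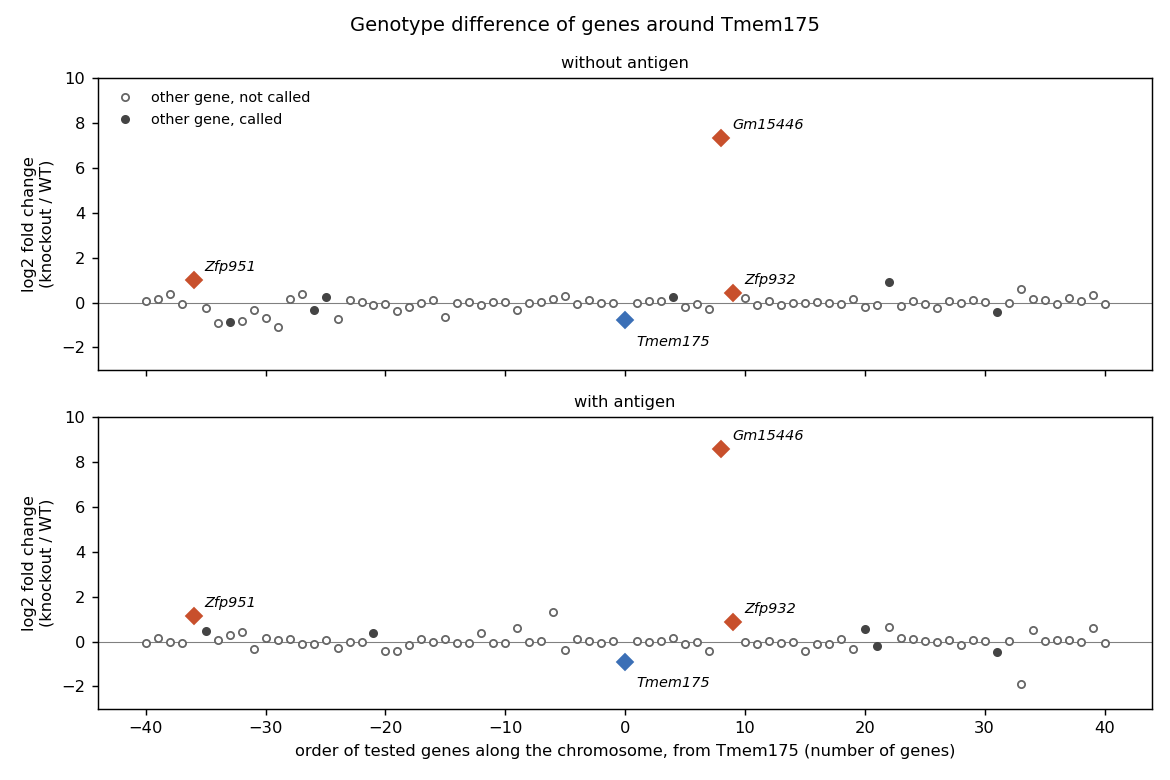
Log2 fold change of knockout over WT (vertical axis) without antigen and with antigen for the 40 tested genes on each side of Tmem175, in gene order (horizontal axis, number of genes). Filled points are called, open points are not, and diamonds are the named genes, with Gm15446 drawn at the log2 of its ratio of 162 or 390; it stands far above all others, Tmem175 is at -0.79 and -0.91, and the 38 nearest other genes hold 1 called gene in each condition.

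Among the 5 tested genes on each side of the 3 genes on other chromosomes, 1 neighbour was called at 2-fold or more in all 4 conditions. This was Loxl2, a collagen cross-linking enzyme next to Gm16867, with mean levels of 2.83 CPM in WT and 0.57 in knockout cultures without antigen and log2 fold changes of -2.30, -2.01, -1.82 and -1.94 (adjusted p 0.0113, 0.000887, 0.00324 and 0.00163, edgeR quasi-likelihood test). The sum of the 8 fibroblast markers was also lower, at 36.2 to 105 CPM in WT and 16.3 to 33.4 in knockout cultures without antigen. Of the 8, 0 were called higher and 4 lower without antigen, and 0 and 5 with it. Over all tested genes 16.9% and 15.3% were called. The part of these markers in the Loxl2 difference was not tested. Around Lrmda and Wdfy1 0 of 10 and 0 of 10 were.

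In windows of 20 tested genes on each side, 3 of 40 around Gm16867 (7.5%), 1 of 40 around Lrmda (2.5%) and 0 of 40 around Wdfy1 were called at 2-fold or more in all 4 conditions, against 2.35% of all tested genes. On chromosome 14, with Gm16867 and Lrmda, 2.25% were, and on chromosome 1, with Wdfy1, 1.18%, these genes included. The genes besides Loxl2, named after their values were seen, were Bmp1, a procollagen protease, and Nuggc, a nuclear GTPase of germinal centre B cells, around Gm16867, and the secreted signal Wnt5a around Lrmda. Bmp1 stood at 2 CPM in WT and 0.809 in knockout cultures without antigen, Wnt5a at 0.672 and 0.0833, and Nuggc, in the opposite direction, at 0 and 0.288. The 0 around Wdfy1 rested in part on the exact 2-fold cut. Its neighbour C130026I21Rik, also named after its values were seen, had log2 fold changes of 1.04, 0.96, 0.99 and 1.01 and was called in all 4 conditions. Close to it, Gm7582, A530040E14Rik and Gm7609 were called 2-fold or more higher in each condition with antigen (1.66, 1.10 and 3.52 with antigen alone). Without antigen they were not called (1.64, 0.53 and 4.34, adjusted p 0.259, 0.224 and 0.0916, edgeR). Gm7582 and Gm7609 were low, averaging 0.349 and 0.235 CPM over the 24 libraries. Epha4, Dner and Irs1 in this window were called 2-fold or more lower in some antigen conditions. By single condition, 2, 4, 6 and 6 of the 40 genes around Wdfy1 were called at 2-fold or more (5%, 10%, 15% and 15%), 4, 4, 5 and 4 of 40 around Gm16867 (10%, 10%, 12.5% and 10%) and 2, 2, 1 and 2 of 40 around Lrmda (5%, 5%, 2.5% and 5%), against 4.11%, 3.99%, 3.76% and 4.03% of all tested genes.

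Zinc finger genes as a family differed little. Of 335 tested genes with names beginning with Zfp, leaving out Zfp932 and Zfp951, 7 were higher and 4 lower without antigen and 9 were higher and 14 lower with antigen, so 11 and 23 of 335 were called, against 16.9% and 15.3% of all tested genes. The median log2 fold change was 0.0251 and 0.0167. Without antigen the highest were Zfp979 at 1.74, Zfp532 at 0.71 and Zfp712 at 0.37, and the lowest Zfp366 at -1.51, Zfp105 at -0.82 and Zfp36l1 at -0.23. Zfp979 went from 0.554 ± 0.23 to 1.85 ± 0.358 CPM and was the only one of the 335 higher at 2-fold or more without antigen. At that cut 1 of the 335 was lower, and 4.11% of all tested genes were called in either direction.

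**Figure D3:**
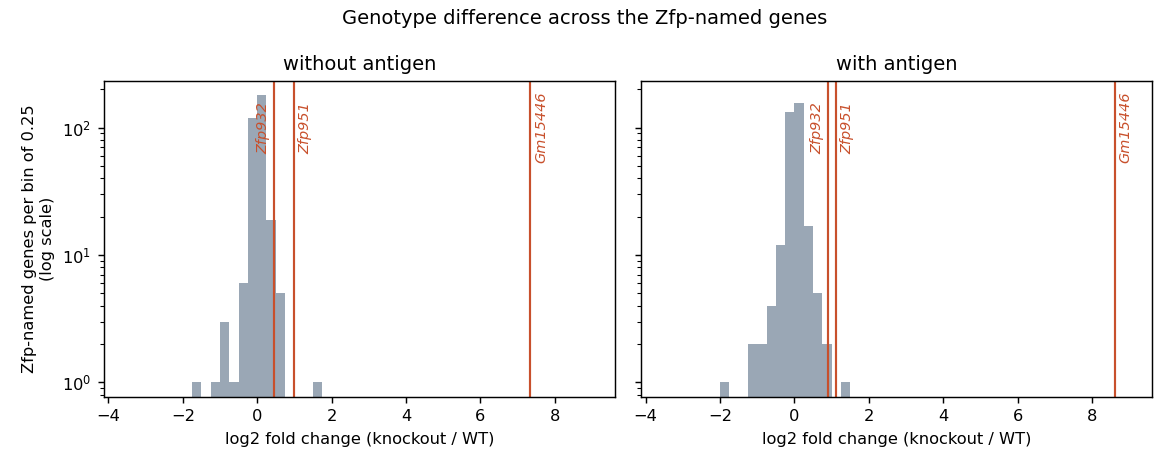
Number of the 335 other Zfp-named genes (vertical axis, log scale) in bins of 0.25 of the log2 fold change of knockout over WT (horizontal axis), without antigen and with antigen; vertical lines mark Zfp932 at 0.44 and 0.89, Zfp951 at 1.00 and 1.13, and Gm15446 at the log2 of its ratio of 162 or 390. Most of the family lies close to 0, and Gm15446 lies beyond all of it.

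The partners through which KRAB zinc finger proteins act differed by small amounts between genotypes. Of 16 corepressor genes 1 was higher and 4 lower without antigen, and 1 was higher and 1 lower with antigen, so 5 and 2 of 16 were called, beside 16.9% and 15.3% of all tested genes called, with medians of -0.026 and 0.00803. Trim28 stood at 88.4 ± 1.72 CPM in WT and 87.9 ± 1.03 in knockout cultures without antigen, and Setdb1 at 74 ± 0.698 and 76.1 ± 3.27. The called genes without antigen with the smallest adjusted p were the remodeller Chd4 (log2 fold change 0.16), the methylation reader Uhrf1 (-0.24), the heterochromatin protein gene Cbx3 (-0.18) and Cbx5 (-0.12). Chd4 and Uhrf1 stood at -0.14 and 0.31 with antigen, opposite in sign to the values without it.

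Genes of the pathways in which Lrmda and Wdfy1 are placed differed by small amounts. Of 20 tested melanosome and Rab32 or Rab38 genes 6 were higher and 1 lower without antigen, with a median of 0.0706, and 4 were higher and 2 lower with antigen, with a median of -0.00292, so 7 and 6 of 20 were called, beside 16.9% and 15.3% of all tested genes called. The melanosome and macrophage glycoprotein gene Gpnmb (0.53), the transcription factor Mitf (0.23), the BLOC-1 subunit Dtnbp1 (0.27) and the lysosome trafficking regulator Lyst (0.26) were higher without antigen. The 8 melanoma markers summed to 1.57 to 5.21 CPM over all 24 libraries, with 4.1 to 4.97 in WT and 3.89 to 5.21 in knockout cultures without antigen, while Lrmda differed 8.59-fold there.

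Of 16 tested genes of Toll-like receptor 3 and 4 signalling through TRIF, 1 was higher and 4 lower without antigen and 3 were higher and 2 lower with antigen, so 5 and 5 of 16 were called, beside 16.9% and 15.3% of all tested genes called. The co-receptor Cd14 had log2 fold changes of -0.38 and -0.61, and Ticam1, which encodes TRIF, 0.15 and 0.03, not called in either. Azi2 (-0.19), Ikbke (-0.15) and Ly96 (0.17) completed the called genes with the smallest adjusted p without antigen. Of 22 FYVE and endosome lipid genes 2 were higher and 2 lower without antigen, beside the same 16.9%; they were Fig4 at 0.20 and Pik3r4 at 0.12, and Wdfy2, the relative of Wdfy1, at -0.21 and Eea1 at -0.11. Of the corepressor, melanosome, TRIF and FYVE lists 0 genes were called at 2-fold or more without antigen or with it by edgeR, where single genes had been called at smaller folds as given above. At that cut 4.11% and 3.99% of all tested genes were called.

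Genes known to differ between inbred mouse strains were read because the labels give no strain. Of the 8 listed, 3 were tested. Nnt, a mitochondrial transhydrogenase truncated in some C57BL/6 stocks, stood at 0.637 CPM in WT and 0.519 in knockout cultures without antigen and at 0.52 and 0.576 with antigen, not called in either. Casp4, which encodes caspase-11, had log2 fold changes of -0.27 and 0.26, both called, and Nlrp1b -0.33, called, and 0.21, not called. Entpd4 and Entpd4b had 0 counts, Ifi202b 0 counts without antigen and 5 in WT against 2 in knockout libraries with antigen, and Hc, complement component C5, at most 3 counts in these 4 groups. H2-Ea was not found under that symbol. These values name no strain for either genotype, and a difference of background near or far from Tmem175 cannot be told apart from the deletion in this design.

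The response to antigen within a genotype was not itself the value used to choose the genes, and it was tested. The libraries it compares did enter the genotype differences behind the choice, so the calls below are not fully independent of it. In WT cultures 3 of the 6 genes were called, 2 higher and 1 lower, against 68% of all tested genes (33.5% higher and 34.5% lower), and in knockout cultures 5 of 6 were called, all higher, against 68.3% of all and 33.8% called higher. One of the 5, Gm16867, passed the filter on low counts only through knockout libraries with antigen, so it had to differ; its values are a description with no test, which leaves 4 of the 5 other genes called. In WT cultures Gm15446 and Gm16867 stayed at or under 3 counts over the group with and without antigen, so a change in them was not detectable at this depth. Tests are edgeR's quasi-likelihood test with Benjamini-Hochberg adjustment over all tested genes.

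Gm15446, nearly absent from WT, rose with antigen in knockout cultures. It rose 2.39-fold, from 7.51, 7.77 and 8.45 CPM to 17.6, 19.6 and 19.7 (log2 fold change 1.26 ± 0.0964, SE, adjusted p 2.34e-12, edgeR), and the groups did not overlap, as for 70.5% of all tested genes. Gm16867 had 16 counts over the 3 knockout libraries without antigen and 87 over the 3 with it. Lrmda rose in knockout cultures (0.66 ± 0.091, adjusted p 2.55e-07) and stood at 0.38 ± 0.203 in WT, not called (adjusted p 0.126), from 70 counts without and 92 with antigen in edgeR. Without the second WT library with antigen the Lrmda value in WT was 0.60 (adjusted p 0.0245), so whether it was called depended on that library.

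Zfp932 rose with antigen in both genotypes. It rose by 0.28 ± 0.0833 on the log2 scale in WT (adjusted p 0.00361) and by 0.74 ± 0.073 in knockout cultures (adjusted p 5.44e-10, edgeR). The difference between the 2 responses was 0.45 ± 0.111. It equals the difference between 2 of the genotype differences by which the genes were chosen, so it is a description with no test for each of the 6 genes. In the fit over all tested genes 8.39% of genes were called for this difference, with 3.79% called higher in knockout cultures, and nothing is read from that for the 6. Gm15446, which shares sequence with it, rose from 486 to 1254 counts in the same knockout libraries and stayed at 3 in WT; its part in the Zfp932 values was not tested.

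Zfp951 was the only one of the 6 with lower values after antigen. It fell by 0.40 ± 0.165 in WT (adjusted p 0.0326, edgeR) and stood at -0.27 ± 0.129 in knockout cultures, not called (adjusted p 0.0665). Both calls changed when single libraries were left out. The WT call was lost without the first or second library without antigen (adjusted p 0.127 and 0.0821, log2 fold changes -0.33 and -0.38) and without the second or the third library with antigen (adjusted p 0.112 and 0.0658, -0.35 and -0.40), and by DESeq2 (adjusted p 0.0728) and with no filter on low counts (0.0618), while without the first knockout library with antigen the knockout value was called (-0.42, adjusted p 0.0106, edgeR). The difference between the 2 responses was 0.13 ± 0.209.

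Wdfy1 rose slightly in both genotypes, by 0.29 ± 0.0609 in WT (adjusted p 0.000111) and by 0.40 ± 0.0791 in knockout cultures (adjusted p 5.79e-05, edgeR). The difference between responses was 0.11 ± 0.0999 for Wdfy1 and 0.28 ± 0.226 for Lrmda. For Gm15446 and Gm16867 the difference between responses could not be measured, because the WT groups were at the floor.

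**Figure D4:**
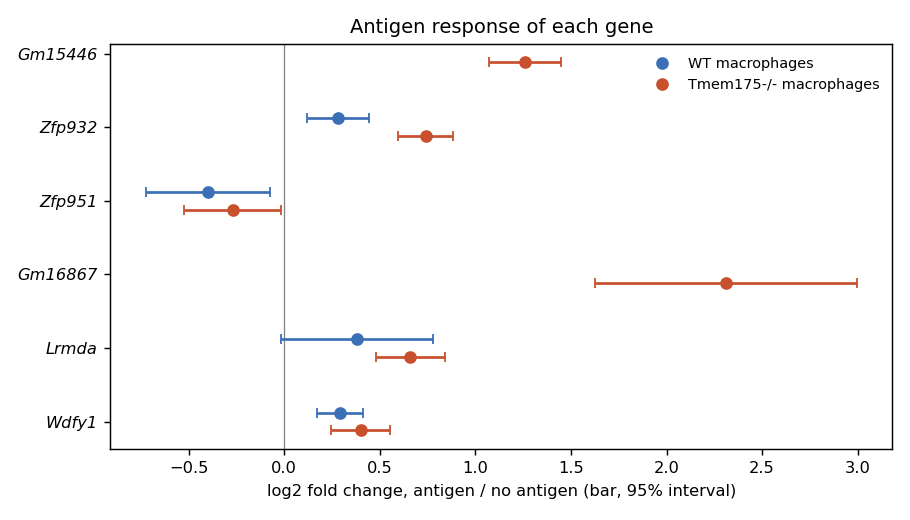
Log2 fold change of antigen over no antigen (horizontal axis) for each gene in WT and knockout cultures, with bars of the 95% interval from the edgeR fit. Gm15446 and Gm16867 have no WT point because their WT counts were at the floor; Zfp951 is the only gene left of 0, and Zfp932 is at 0.28 in WT and 0.74 in knockout cultures.

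For neither cytokine was any of the 6 genes called, and the share of all tested genes called was itself at or near 0. The lack of calls is therefore not particular to these genes. In WT cultures with antigen Gm16867 had 0 counts and Gm15446 3 or 4 counts over each group, so neither could show a response there. With IL-1beta added to antigen 0 of 6 were called in WT and 0 of 6 in knockout cultures, against 0.0567% and 0.0426% of all tested genes, and with IL-18 0 and 0, against 0% and 0.213% (edgeR, adjusted p under 0.05; 0 in each also by DESeq2). At an unadjusted p under 0.05 edgeR gave 2 genes for IL-1beta in WT (Lrmda and Zfp932), 1 for IL-1beta in knockout cultures (Gm15446), and 0 for IL-18 in either. Lrmda in WT had the largest of these values, with 2.08, 2.16 and 2.26 CPM with IL-1beta against 1.09, 1.58 and 1.87 without it (log2 fold change 0.54 ± 0.174, adjusted p 0.378); the libraries did not overlap, as for 17% of all tested genes in that comparison. For Gm15446 in knockout cultures the value was -0.19 with an interval of -0.36 to -0.02 before adjustment, and for Zfp932 in WT -0.20 with -0.36 to -0.04.

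Across the 24 libraries each gene was set beside the 3 tested genes whose log2 CPM followed it most closely by Pearson's r, which is a description, since all 24 share the split by genotype. For Gm15446 they were the antibody genes Igkc (r = 0.994), Igkv10-96 (0.992) and Ighv9-4 (0.991), and for Lrmda Ighg2b (0.986), Igkv10-96 (0.981) and Ighg2c (0.981). For Zfp932 they were Gm42047 (0.969), ENSMUSG00000062783 (0.953) and the interferon-inducible Ifi208 (0.952), and for Gm16867 Igkv4-60 (0.978), Ifi208 (0.974) and Gm42047 (0.965). Zfp951 went with Arhgef18 (0.972), Ifi30 (0.938) and Jchain (0.936), and Wdfy1 with Dynlt1b (0.982), Vcam1 (0.963) and Lyz2 (0.961). By Spearman's rho the 3 closest genes shared 0 with these for Gm15446, Lrmda and Wdfy1 and 1 for Zfp932, Zfp951 and Gm16867. Among the 6 genes r ran from 0.695 (Zfp932 with Zfp951) to 0.984 (Gm15446 with Lrmda) for the genes higher in knockout cultures, and from -0.959 to -0.775 for each of these with Wdfy1.

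Antibody genes and plasma cell markers differed between the genotypes alongside these genes. The 8 plasma cell markers summed to 329 to 332 CPM in WT and 554 to 609 in knockout cultures without antigen, and to 309 to 325 and 439 to 464 with antigen, with none at 0. Among the 7 tested, 6 were higher and 0 lower without antigen, and 5 higher and 1 lower with it. Over all tested genes 16.9% and 15.3% were called. Jchain, 1 of these markers, alone went from 8.46 CPM in WT to 191 in knockout cultures without antigen. The B cell markers went the other way, with 0 higher and 3 lower of 5 tested without antigen, and 0 and 2 with it. Igkc, the kappa light chain constant gene, stood at 13.9 CPM in WT and 694 in knockout cultures without antigen. In knockout cultures the marker sum went from 554 to 609 CPM without antigen to 439 to 464 with it, while Gm15446, Zfp932 and Lrmda rose; Zfp951 went from 6.42 to 5.32 CPM. The antibody genes did not follow the marker sum: in the same knockout cultures mean levels went from 694 to 835 CPM for Igkc, from 68.5 to 82.5 for Igkv10-96 and from 582 to 760 for Ighg2b. The macrophage markers, whose sum was lower in knockout cultures as Wdfy1 was, came with antigen to 14900 to 17300 CPM in knockout and 24100 to 25100 in WT cultures, where Wdfy1 differed 3.24-fold. Within that sum the lysozyme gene Lyz2 stood at 11300 and 6080 CPM in WT and knockout cultures without antigen and 14800 and 6850 with it. Of the 9 macrophage markers 2 were higher and 3 lower without antigen, and 2 higher and 2 lower with it. Over all tested genes 16.9% and 15.3% were called, smaller shares than in this list. Its median log2 fold changes were -0.103 and -0.044, so the list did not move one way. Adgre1 had -0.19 and Cd68 0.21 without antigen. Which cells in the mixture carried the 6 RNAs was not tested.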

How the data were processed

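Poly(A) RNA from 24 mixed cultures was sequenced. The authors deposited 1 table of raw counts per Ensembl gene, with 1 column per library; per the submitters' processing notes reads were trimmed with fastp and the build was GRCm39, and the aligner, counter, annotation and strand setting are not given in the sources used here. Groups came from the sample titles. Of 55487 identifiers 346 had no symbol (0.0228% of counts).

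edgeR's filterByExpr left 14099 genes holding 99.9% of counts, which were scaled with TMM and fitted with a robust quasi-likelihood model with 1 coefficient per group over all 24 libraries (edgeR 4.0.16 in R 4.3.3, 16 residual degrees of freedom). A call is a Benjamini-Hochberg adjusted p under 0.05 within a comparison over all tested genes. CPM uses the TMM factors; depths of 17744540 to 24898552 counts and a replicate spread of 5.01% (edgeR's common coefficient of variation) set the precision. The script was tested on simulated data. Where WT had 1 to 4 counts over the group, the ratio to knockout is given with an exact 95% interval; where it had 0, a bound against 3 counts over the group. Gene order and chromosomes came from RefSeq on GRCm38.p6 (13142 tested genes matched), and sequences from it and GENCODE vM21, since no annotation of GRCm39 was used here. No pair of replicates agreed within sampling noise (chi-square per degree of freedom 1.46 to 16.7 over 24 pairs).

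The 6 genes and the lists were chosen with earlier results of these data known. Beyond the 6 genes and Tmem175, the text names the 3 genes most correlated with each, neighbours called at 2-fold or more in all 4 genotype comparisons, the 3 highest and lowest called Zfp-named genes, up to 4 called genes per list by smallest adjusted p and the whole strain list; neighbours in wider windows were named after their values were seen; genes flanking a named gene, or sharing its sequence or overlapping it, are named for context, as are Trim28, Setdb1 and Ticam1 as core genes of their lists. Other settings were DESeq2 size factors, DESeq2's Wald test (1.42.0), no filter, a replicate block, only the libraries compared, leaving out each library in turn, other windows, and Spearman correlation.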

Additional observations from a re-analysis of the deposited data

Results flagged for a closer look

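The response of Zfp932 to antigen was higher by 0.45 on the log2 scale in knockout than in WT cultures, and passed the threshold in the fit over all genes. This value is the difference between 2 genotype differences by which the gene was chosen, so it is a description and no independent support. Its levels rose from 9.75 ± 0.56 to 11.9 ± 1.13 CPM in WT and from 13.2 ± 0.955 to 22 ± 1.02 CPM in knockout cultures (mean ± SD, n = 3). Gm15446, which shares 30.8% of the Zfp932 windows, rose from 7.91 to 19 CPM in the same knockout libraries, and its part in the Zfp932 values was not tested.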

How the results depend on the processing

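The direction of the genotype difference of each of the 6 genes held in each of 11 alternatives per condition. The 0 calls for the cytokines, the 5 of 6 for antigen in knockout cultures (5 to 6 with 1 library left out) and the 1 of 6 for the difference of responses, which is a description, stayed within 1.5 times, as did the 3 of 6 for antigen in WT (2 to 3 with 1 library left out, 2 by DESeq2). The neighbours of Tmem175 stayed at 0 calls in windows of 10 and 40 genes; with no minimum fold the value was 1 in each condition. With 1 library left out, the genes called between genotypes ranged from 1648 to 2649 without antigen, 1646 to 1908 with antigen, 1323 to 1734 with IL-1beta and 1864 to 2545 with IL-18, against 2379, 2160, 1941 and 2851; the lowest with IL-18 left out the third WT library, and the cause was not tested. Replicate numbers were not taken to pair the libraries, since only 30 of 84 same-numbered pairs had deviations correlated over 0.1 (-0.0452 to 0.276, median 0.0729 against -0.0449 for other pairs); 21 of 24 libraries were closest to their own number, a hint from the data of shared variation. With the replicate block 2876, 2636, 2372 and 3437 genes were called without antigen, with antigen, with IL-1beta and with IL-18, and no call among the 6 genes changed. Among values for single genes 685 counted as unchanged. That meant within the SE for a genotype difference and within the SD for a level. For a response or a difference of responses it meant the same call status only. Uncalled responses could change sign, as Lrmda did with IL-18 in WT (-0.0711 to 0.342). As calls 6 were lost and 2 gained, all in Zfp951 or Lrmda, and 23 values moved by more than those margins or changed the list of similar genes. Depth limits Gm15446 and Gm16867 in WT, where 0 to 2 counts per library cannot show a response.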
